A study of Mus musculus with 4 samples.

Results

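Bcl2l11, Bbc3, Bid, Pmaip1, Bad, Bmf, Bik, Bax and Bak1 encode proteins that start or carry out the mitochondrial pathway of apoptosis. They were read in mouse thymic invariant natural killer T (iNKT) cells labelled wild type or knockout for ACC1, the enzyme encoded by Acaca. The 9 genes were chosen by symbol from the 32285 genes in the deposited files, and each symbol was found once. The groups were 2 libraries labelled wild type (WT 1 and WT 2) and 2 libraries labelled knockout (ACC1 KO 1 and ACC1 KO 2) of CD3+ CD1d tetramer+ thymocytes, sorted from mice aged 6 to 8 weeks. The labels leave out the deleted part of Acaca, how and in which cells it was deleted, the strain, and whether each library is from its own mouse. Each p-value therefore measures only the spread between these libraries.

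iNKT cells are T cells with a nearly fixed T cell receptor that sees lipids on CD1d. In the thymus they divide into iNKT1, iNKT2 and iNKT17 cells, which resemble the helper lineages of the same numbers, from an early stage called iNKT0. ACC1 makes malonyl-CoA, the first committed step of fatty acid synthesis.

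In the mitochondrial pathway, BH3-only proteins sense stress, growth factor loss or receptor signals. Some of them (BIM from Bcl2l11, PUMA from Bbc3, and BID) can activate the effectors directly, and others (NOXA from Pmaip1, BAD, BMF and BIK) mainly bind the guardians BCL-2, BCL-XL and MCL-1. The effectors BAX and BAK, from Bax and Bak1, then form pores in the outer mitochondrial membrane and release cytochrome c. BIM is best known in the thymus for the death of T cells with strong self-reactivity, and PUMA and NOXA are known targets of p53. Much of the control of BAX, BAK, BID and BAD is on the protein, by location, cleavage or phosphorylation, and transcript counts do not show it.

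Sequence was looked at around the starts of transcription, because FOXO factors are known to drive Bcl2l11 and Bbc3, and p53 is known to drive Bbc3. RefSeq (GRCm38.p6, the same assembly as mm10) gave 13 windows of 300 bases, 250 before to 50 after a start, for 7 of the 9 genes; there was none for Pmaip1 or Bik. The FOXO core was searched as GTAAACA on both strands, and the p53 consensus by name, with both cores kept and up to 3 of its 20 positions mismatched. Of 32851 such windows, 3.65% held the first and 1.38% the second. The 3 windows with a match are printed because they belong to Bbc3 and Bcl2l11, the genes that most of the values below turn on, with the match in capitals, 5′ to 3′ on the plus strand. The first is the Bbc3 window at chr7:16309333-16309632 with a p53 match, the second the Bbc3 window at chr7:16310011-16310310 with the FOXO core on the minus strand, and the third the Bcl2l11 window at chr2:128125788-128126087 with the FOXO core on the plus strand.
Bbc3 first start: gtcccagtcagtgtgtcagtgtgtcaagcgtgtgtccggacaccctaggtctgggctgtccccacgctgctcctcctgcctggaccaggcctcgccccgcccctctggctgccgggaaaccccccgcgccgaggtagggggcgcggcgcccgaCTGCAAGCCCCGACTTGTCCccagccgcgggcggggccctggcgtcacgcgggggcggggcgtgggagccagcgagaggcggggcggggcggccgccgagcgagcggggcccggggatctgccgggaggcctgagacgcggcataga
Bbc3 middle start: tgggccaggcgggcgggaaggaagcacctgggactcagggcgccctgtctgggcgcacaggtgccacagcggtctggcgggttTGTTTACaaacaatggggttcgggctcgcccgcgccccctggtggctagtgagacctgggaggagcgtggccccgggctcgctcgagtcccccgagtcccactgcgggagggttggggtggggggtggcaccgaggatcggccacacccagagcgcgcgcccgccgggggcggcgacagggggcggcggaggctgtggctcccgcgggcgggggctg
Bcl2l11: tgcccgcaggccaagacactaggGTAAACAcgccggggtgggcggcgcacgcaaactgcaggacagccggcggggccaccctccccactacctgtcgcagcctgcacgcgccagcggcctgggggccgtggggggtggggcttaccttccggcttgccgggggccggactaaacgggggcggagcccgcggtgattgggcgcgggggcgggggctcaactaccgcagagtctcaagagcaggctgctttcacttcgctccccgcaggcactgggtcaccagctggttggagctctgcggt

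The p53 match lies 97 bases before its Bbc3 start and has 3 mismatches. The FOXO cores lie 167 bases before the middle one of the 3 Bbc3 starts and 227 bases before the Bcl2l11 start. The other 10 windows, which belong to Bid, Bad, Bmf, Bax, Bak1 and further starts of Bbc3 and Bcl2l11, held neither set of letters. A match is a description of the letters and not a bound site.

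The files held 30455 barcodes, and 27041 iNKT cells were kept (4615 and 9017 in the WT libraries, 5607 and 7802 in the ACC1 KO libraries). Their total depth, in unique molecular identifiers (UMIs), was 23.5 and 62.5 M in WT and 28.4 and 64.8 M in ACC1 KO. Depth and sex moved with the replicate number and not with the genotype label: the 2 libraries numbered 1 were the shallower ones and had Ddx3y at 77.0 to 82.1 CPM (UMIs of the gene per 1000000 UMIs summed over the cells), and those numbered 2 had Xist at 588 to 651 CPM. Any 2 libraries shared 8 to 23 barcodes, at most 0.29% of the smaller one. Cd3e was found in 84.5 to 97.6% of iNKT cells. Acaca read 34.6 and 31.9 CPM in WT and 47.3 and 60.7 in ACC1 KO, so the 3′ count did not show the deletion and the genotype is taken from the labels. The lipid enzyme gene Scd2 read 42.6 and 30.1 CPM in WT and 225 and 246 in ACC1 KO (adjusted p = 0.059, edgeR). Within the iNKT gate, summed markers of double-positive (DP) thymocytes (9 genes) ranged from 25.8 to 33.9 CPM in WT and from 53 to 60.3 in ACC1 KO, those of B cells (8 genes) from 83.1 to 99.3 and from 90.2 to 102 CPM, and those of myeloid cells (9 genes) from 268 to 285 and from 179 to 263 CPM.

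Clusters made without the Bcl2 family genes were named from marker lists, so that 17873 cells were iNKT1-like, 1272 iNKT2-like, 346 iNKT0-like, 214 iNKT17-like, 1204 cycling and 2343 led by interferon-responding genes. A further 3789 cells, cluster 3, were led by Klra7, Fcer1g, Klra1 and Klra9, mostly Ly49 receptor genes, and keep that description. Its marker scores named it iNKT1-like, with 12 of 12 iNKT1 markers detected. It was kept apart because another marker list held 1 of its 10 leading genes and the iNKT1 list 0. Shares of iNKT cells differed between the genotype labels for some classes. The iNKT2-like class made up 3.94 and 2.13% in WT and 6.74 and 6.66% in ACC1 KO, and the iNKT17-like class 1.71 and 0.88% in WT and 0.45 and 0.40% in ACC1 KO. Within the iNKT1-like class, a cluster led by Gm4208, Ifitm2, Gzma and Ccl5 held 8.19 and 7.34% of iNKT cells in WT and 26.6 and 20.8% in ACC1 KO.

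Over all iNKT cells, all 9 genes passed the filter on low counts, and none passed edgeR's quasi-likelihood test at an adjusted p of 0.05 (Benjamini-Hochberg over 14710 genes). The test called 1 gene, 0.00680% of those tested, and 709 genes had an unadjusted p under 0.05. DESeq2 called 0.719% of genes and none of the 9. Read by library, both ACC1 KO values lay above both WT values for Bbc3, Pmaip1 and Bmf, where 11.3% of all genes did so, and below both for Bik, where 19.2% of all genes did. With 2 libraries a group, an exact permutation test of a single gene cannot give a p under 0.333. ACC1 KO 1 stood apart from the other 3 libraries for Bcl2l11, Bbc3 and Bax.

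**Figure D1:**
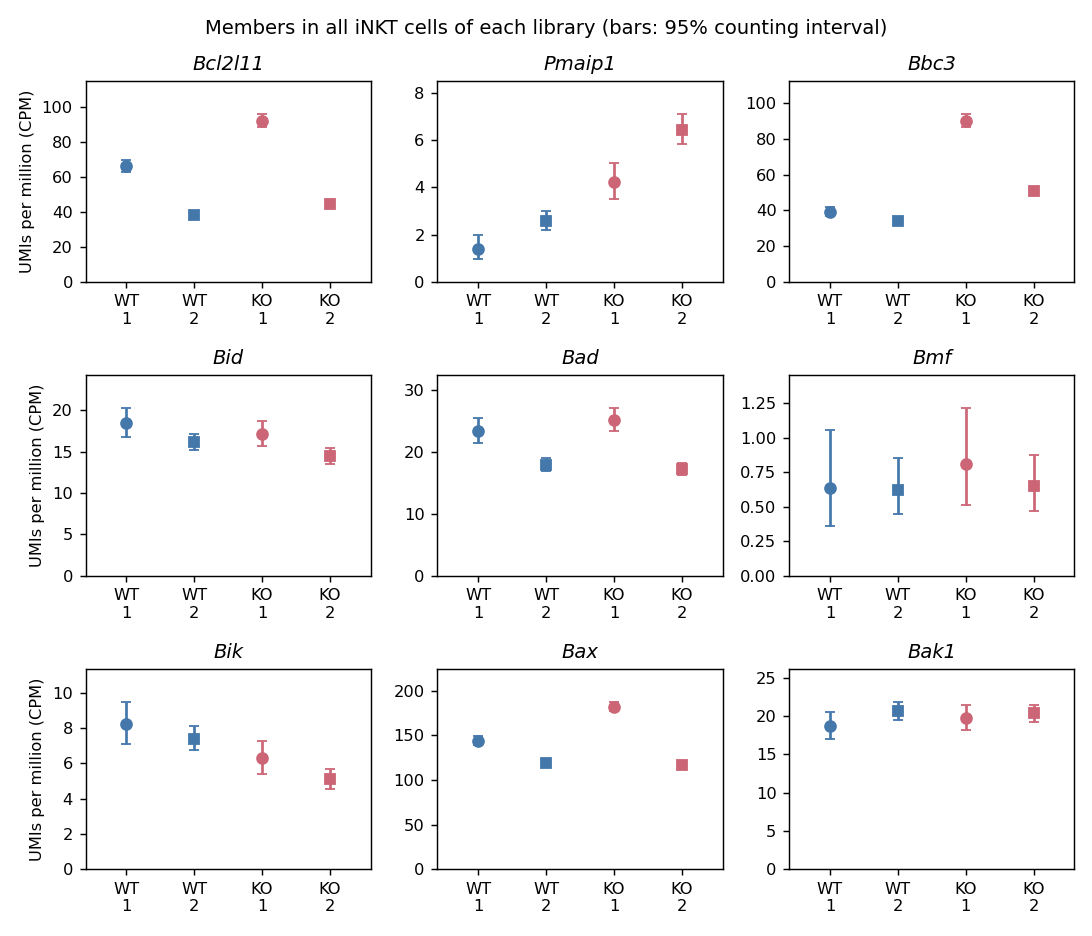
CPM of each of the 9 genes in the summed iNKT cells of each library (1 point a library with its 95% counting interval, vertical axes from 0 on their own scales). Both ACC1 KO points lie above both WT points for Bbc3, Pmaip1 and Bmf and below them for Bik, and the highest Bcl2l11 value, 91.9 CPM, is ACC1 KO 1.

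Among the activators, Bbc3 (PUMA; ENSMUSG00000002083, chr7:16308393-16318205, plus strand) read 39.4 CPM in WT 1, 34.3 CPM in WT 2, 90.2 CPM in ACC1 KO 1 and 51.1 CPM in ACC1 KO 2. The means were 36.8 ± 3.63 CPM (SD, n = 2) in WT and 70.7 ± 27.7 CPM (SD, n = 2) in ACC1 KO. Both ACC1 KO libraries were above both WT libraries, and ACC1 KO 1 was far above ACC1 KO 2. The log2 difference was 0.99 ± 0.27 (SE), with a 95% interval of 0.30 to 1.68, an unadjusted p of 0.0138, an adjusted p of 0.784 by edgeR and an adjusted p of 0.061 by DESeq2. Between libraries of the same number it was 1.19 for number 1 and 0.58 for number 2. Without ACC1 KO 1 the log2 difference was 0.55.

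Bcl2l11 (BIM; chr2:128126038-128162547, plus strand) read 65.9 CPM in WT 1, 38.0 CPM in WT 2, 91.9 CPM in ACC1 KO 1 and 44.3 CPM in ACC1 KO 2. The groups overlapped, since WT 1 was above ACC1 KO 2, and the 2 libraries numbered 1 were the highest. The log2 difference was 0.45 ± 0.39 (SE; 95% interval -0.55 to 1.44), and without ACC1 KO 1, which leaves a library numbered 1 in WT only, it was -0.14. Between libraries of the same number it was 0.48 for number 1 and 0.22 for number 2, higher in ACC1 KO in both. The median mitochondrial share of UMIs (3.08 and 1.79% in WT, 2.51 and 1.35% in ACC1 KO) and Gm42418, a transcript that overlaps ribosomal RNA (7833 and 1970 CPM in WT, 9441 and 1803 in ACC1 KO), were also higher in the libraries numbered 1; their part in the levels was not tested.

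Bid, whose product links death receptors to the mitochondria once it is cleaved (chr6:120891930-120916853, minus strand), read 18.4 and 16.2 CPM in WT and 17.2 and 14.5 in ACC1 KO. These groups overlapped, with a log2 difference of -0.08 ± 0.15 (SE), and -0.10 and -0.16 within numbers 1 and 2. It shares 913 bases with Bcl2l13 on the other strand, and whether the counting used the strand is not given in the sources used here.

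Among the sensitisers, Pmaip1 (NOXA, a partner of MCL-1; chr18:66458533-66465565, plus strand) was scarce, with 33 and 162 UMIs in WT and 120 and 418 in ACC1 KO. Its levels were 1.41 and 2.59 CPM in WT and 4.22 and 6.45 in ACC1 KO, so the groups did not overlap and both libraries numbered 2 were above their counterparts numbered 1. The log2 difference was 1.42 ± 0.40 (SE), with a 95% interval of 0.41 to 2.44, an unadjusted p of 0.0149, an adjusted p of 0.784 by edgeR and of 0.130 by DESeq2. It was 1.56 between the libraries numbered 1 and 1.30 between those numbered 2.

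Pmaip1 read 28.2 to 190 CPM in myeloid-like cells (81 cells) and 7 to 23.9 CPM in B cell-like cells (549 cells). Both read above the iNKT cells in all 4 libraries, but some values rest on few UMIs. Myeloid-like cells held 19 and 3 Pmaip1 UMIs in WT and 3 and 46 in ACC1 KO. B cell-like cells held 55 and 1 in WT and 10 and 5 in ACC1 KO. The counting interval of B cell-like cells was 0.177 to 39.0 CPM in WT 2 and 5.53 to 39.7 CPM in ACC1 KO 2. These intervals include the iNKT levels of Pmaip1, 2.59 and 6.45 CPM, so the order is not settled there. The 576 DP thymocyte-like cells read 9.96 and 0 CPM in WT and 3.40 and 2 in ACC1 KO, above the iNKT cells in WT 1 only. Summed over their lists, the markers of myeloid cells (179 to 285 CPM) and B cells (83.1 to 102 CPM) were present in the iNKT cells, and the myeloid list includes Fcer1g, which leads cluster 3. Of single genes, Lyz2 read 0.596 and 0.080 CPM in WT and 0.457 and 0.108 in ACC1 KO, against 2643 CPM in myeloid-like cells, and Cd79a read 0.448 to 1.02 CPM, against 1777 CPM in B cell-like cells. The part of these cells, and of the DP markers, which were higher in ACC1 KO, was not tested.

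Bik (chr15:83526862-83544634, plus strand), whose product sits mainly at the endoplasmic reticulum, was the only gene of the 9 with both ACC1 KO libraries below both WT libraries. It read 8.22 and 7.39 CPM in WT and 6.29 and 5.09 in ACC1 KO. The log2 difference was -0.41 ± 0.19 (SE; 95% interval -0.89 to 0.07, adjusted p = 1 by edgeR). Bik is at its highest in iNKT17-like cells, which were fewer in ACC1 KO, and the summed iNKT17 markers read 119 and 73.4 CPM in WT and 37.2 and 30.1 in ACC1 KO. Without the iNKT17-like cells, a setting added after seeing the data, the log2 difference of Bik was -0.35. The part of the class sizes in the Bik level was not tested.

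Bad, whose product is held by 14-3-3 proteins when phosphorylated (chr19:6941861-6951899, plus strand), read 23.4 and 17.9 CPM in WT and 25.1 and 17.2 in ACC1 KO. The groups overlapped, and the libraries numbered 1 were higher than those numbered 2 in both genotypes. Its log2 difference was 0.08 ± 0.22 (SE).

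Bmf, whose product is tethered to the cytoskeleton (chr2:118528757-118549687, minus strand), was close to absent, with 119 UMIs in the 27041 iNKT cells. It read 0.639 and 0.624 CPM in WT and 0.808 and 0.648 in ACC1 KO. ACC1 KO 2 lay close to both WT libraries, and the log2 difference was 0.24 ± 0.36 (SE), smaller than its error.

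Of the effectors, Bax (chr7:45461697-45466898, minus strand) read 144 CPM in WT 1, 119 CPM in WT 2, 182 CPM in ACC1 KO 1 and 117 CPM in ACC1 KO 2. ACC1 KO held both the highest and the lowest value. The log2 difference was 0.24 ± 0.23 (SE; 95% interval -0.34 to 0.81), and without ACC1 KO 1 it was -0.09. Between libraries of the same number it was 0.34 for number 1 and -0.03 for number 2.

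Bak1 (chr17:27019810-27029009, minus strand) was the steadiest, at 18.7 and 20.7 CPM in WT and 19.8 and 20.4 in ACC1 KO. Its log2 difference was 0.07 ± 0.15 (SE), and the 95% interval of -0.30 to 0.44 bounds what these 4 libraries allow. Bak1 lies wholly within Ggnbp1, which is on the other strand and read 1.84 to 2.34 CPM.

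**Figure D2:**
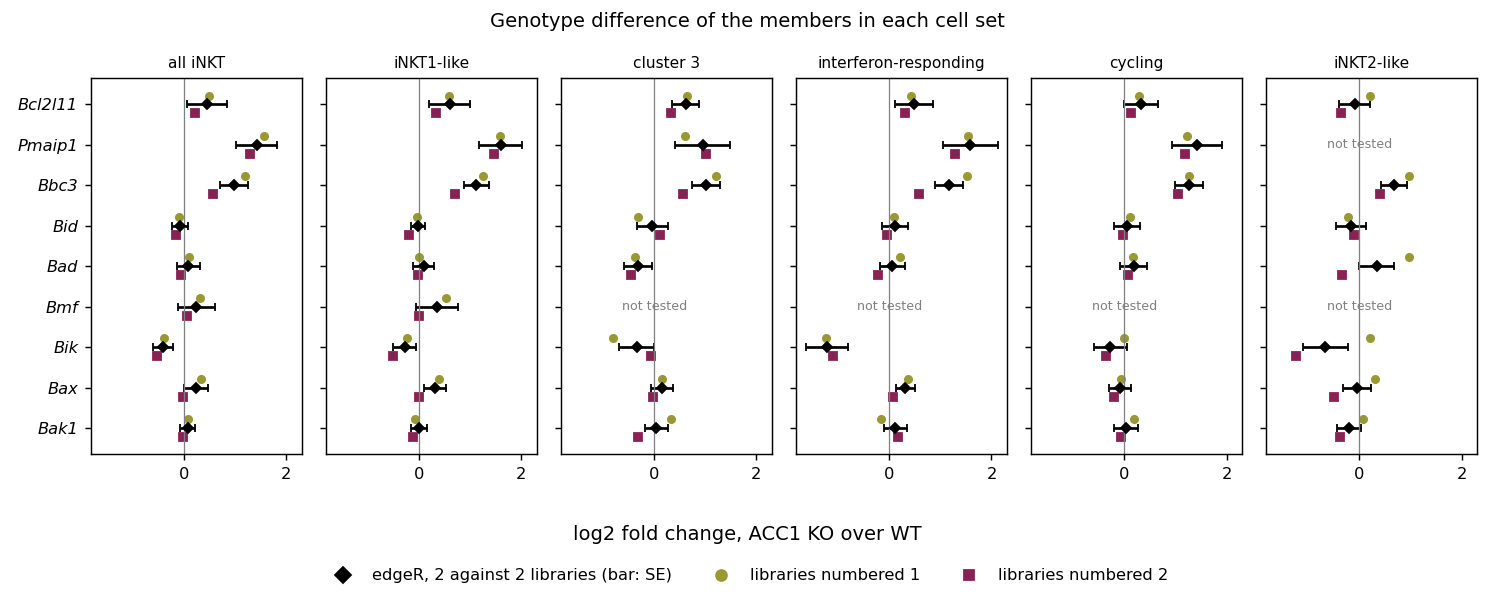
Log2 difference, ACC1 KO against WT, of each gene in all iNKT cells and in the classes tested (horizontal axis; diamonds, edgeR estimates with standard errors; circles and squares, the difference within libraries numbered 1 and 2). The edgeR value of Bbc3 lies between 0.68 and 1.27 in every set of cells, and Bak1 and Bid lie near 0 in all iNKT cells.

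Within the iNKT1-like class none of the 9 genes passed edgeR's test; the test called 0% of 13465 genes, and 516 had an unadjusted p under 0.05. DESeq2 called 0.625% of genes, Bbc3 among them (adjusted p = 0.00643). In this class Bbc3 read 41.4 and 35.3 CPM in WT and 98.9 and 57.8 in ACC1 KO, with a log2 difference of 1.12 ± 0.25 (SE; adjusted p = 0.693 by edgeR). Leaving out ACC1 KO 2 took Bbc3 past edgeR's threshold (log2 difference 1.43, adjusted p = 0.0148), and leaving out ACC1 KO 1 gave 0.73. Pmaip1 read 1.46 and 2.60 CPM in WT and 4.51 and 7.33 in ACC1 KO, a log2 difference of 1.60 ± 0.42 (SE; adjusted p = 0.923 by edgeR). Bbc3 and Pmaip1 were above both WT values in both ACC1 KO libraries, as were 7.80% of all genes, and Bik was below both, as were 24.1% of all genes.

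The iNKT1-like class is made of 6 clusters whose sizes differ between the genotype labels, so the same genes were read within each. Bbc3 was higher in both ACC1 KO libraries than in both WT libraries in 5 of the 6 clusters. The exception was a cluster of 114 cells led by Gm42418, where Bbc3 read 198 and 52.4 CPM in WT and 209 and 17.8 in ACC1 KO. Pmaip1 was higher in both ACC1 KO libraries than in both WT libraries in 4 of the 6 clusters, Bax in 1 and Bcl2l11 in none. The share of all genes that did so was not computed within these clusters. They come from the same libraries and are not independent of one another. Some Pmaip1 values rest on few UMIs, such as 0 in WT 1 and 3 in ACC1 KO 1 of a cluster led by Nkg7. Bcl2l11 was higher in ACC1 KO 1 than in WT 1 in all 6 clusters and higher in ACC1 KO 2 than in WT 2 in 5.

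The same direction of Bbc3 was seen in every other class that could be tested. It read 58.3 and 47.6 CPM in WT and 135 and 70.1 in ACC1 KO in cluster 3 (log2 difference 1.02 ± 0.27, SE, adjusted p = 0.737 by edgeR). In the interferon-responding cells it read 29.2 and 31.0 CPM in WT and 84.4 and 46.8 in ACC1 KO (1.17 ± 0.27, SE, adjusted p = 0.450 by edgeR). Cycling cells read 18.3 and 13.9 CPM in WT and 44.3 and 29.3 in ACC1 KO (1.27 ± 0.28, SE, adjusted p = 0.717 by edgeR).

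These classes come from the same libraries and are not independent of one another, and none of the 9 genes was called in any of them. In cluster 3, edgeR called 0.00962% of genes, and the ACC1 KO values lay above both WT values for 8.49% of genes and below them for 20.2%. In the interferon-responding cells these shares were 0.0197%, 8.95% and 21.8%, and in the cycling cells 0.0370%, 12.0% and 16.0%. The widest Bik difference was in the interferon-responding cells, at 7.44 and 6.61 CPM in WT and 2.83 and 2.74 in ACC1 KO (log2 difference -1.22 ± 0.41, SE, adjusted p = 1 by edgeR).

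iNKT2-like cells read lower on Bbc3, at 22.7 and 24.3 CPM in WT and 44.7 and 32.1 in ACC1 KO, a log2 difference of 0.68 ± 0.25 (SE; adjusted p = 1 by edgeR). There edgeR called 0% of 10292 genes, 235 had an unadjusted p under 0.05, DESeq2 called 3 genes and none of the 9, and the ACC1 KO values lay above both WT values for 13.0% of genes and below them for 11.9%. Pmaip1 missed the count filter in iNKT2-like cells, with 0 and 1 UMIs in WT and 7 and 14 UMIs in ACC1 KO. Bcl2l11 read 18.5 and 17.3 CPM in WT and 21.3 and 13.3 in ACC1 KO, and the groups overlapped.

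Whether the genotype difference itself differed between the iNKT2-like and the iNKT1-like class was tested as an interaction, which called 20 of 13153 genes (0.152%) and none of the 9. The differences in log2 difference, iNKT2-like minus iNKT1-like, were -0.68 ± 0.24 (SE) for Bcl2l11, -0.40 ± 0.15 for Bax and -0.42 ± 0.20 for Bbc3. Their adjusted p-values were 0.369, 0.475 and 0.718 by edgeR, and 880 genes had an unadjusted p under 0.05.

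Smaller groups of cells gave ratios of ACC1 KO to WT within a number, with exact intervals that cover counting error only. In cycling cells on the iNKT1 side the Bbc3 ratio was 3.80 (95% interval 1.99 to 8.15) for number 1 and 2 (1.46 to 2.80) for number 2. In iNKT17-like cells, with 5 to 14 Bbc3 UMIs a library, it was 3.55 (1.02 to 12.8) and 0.777 (0.219 to 2.28), so the numbers went opposite ways within wide intervals. In cycling cells on the iNKT2 side the Bbc3 ratio was 0.610 (0.235 to 1.60) and 2.24 (1.33 to 3.91).

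The 9 genes also differed in where among the iNKT classes they were read. These are descriptions of clusters of the same cells and carry no test. A class is said to lie above another only where this held in all 4 libraries.

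**Figure D3:**
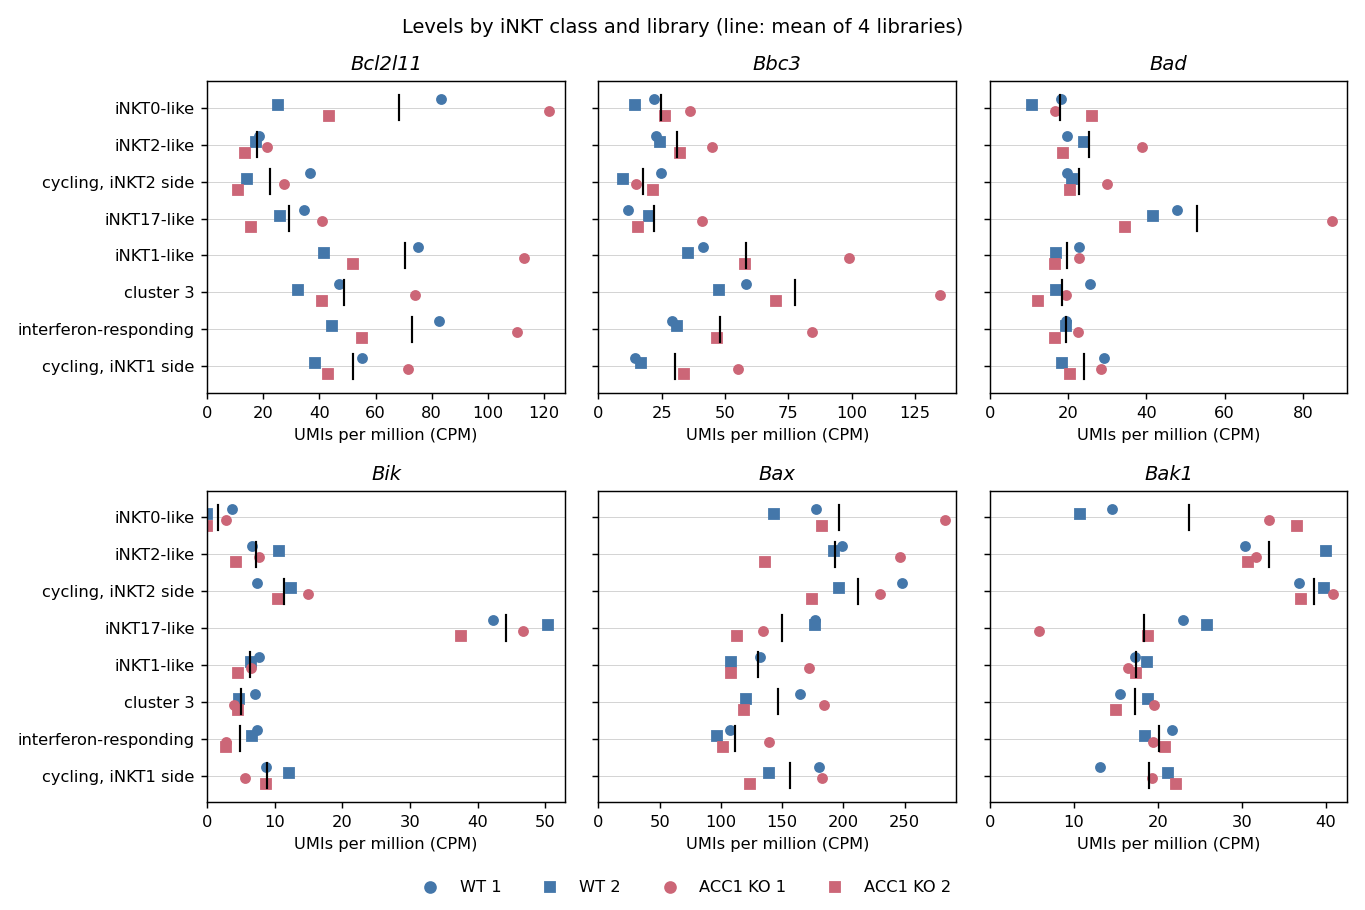
CPM of 6 of the genes (horizontal axes from 0, on their own scales) in the 8 iNKT classes, with 1 point a library and a line at the mean of 4 libraries. Bik and Bad are highest in the iNKT17-like class in all 4 libraries, and Bcl2l11 is lower and Bak1 higher in the iNKT2-like class than in the iNKT1-like class.

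Bcl2l11 separated the iNKT1-like from the iNKT2-like class. It read 75.1 and 41.6 CPM in WT and 113 and 52.1 in ACC1 KO in the iNKT1-like class, and 13.3 to 21.3 CPM in the iNKT2-like class. The ratio of iNKT2-like to iNKT1-like cells was 0.188 to 0.417, below 1 in all 4 libraries. The interferon-responding, iNKT1-like and iNKT0-like classes, at means of 73.1, 70.4 and 68.5 CPM, could not be ordered, since the libraries did not keep one order among them.

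Bbc3 was highest in cluster 3, at a mean of 77.7 ± 39.3 CPM (SD, n = 4), which was 1.21 to 1.41 times the iNKT1-like level. Cluster 3 had the iNKT1 markers too, so these are not separate lineages by their markers. The iNKT1-like level (58.4 CPM) lay above the interferon-responding level (47.9 CPM), and that above the iNKT2-like level (31.0 CPM). The cycling cells of the iNKT1 side (30.1 CPM), the iNKT0-like (24.6 CPM) and the iNKT17-like class (22.1 CPM) had lower means, with no order among neighbours, the iNKT2-like class included, that all libraries kept.

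Bik marked the iNKT17-like class. It read 42.2 and 50.4 CPM in WT and 46.7 and 37.6 in ACC1 KO there, 5.54 to 8.30 times the iNKT1-like level and 3.90 times the mean of the next class. The ACC1 KO to WT ratio of Bik within the iNKT17-like class was 1.11 (0.426 to 2.58) for number 1 and 0.746 (0.352 to 1.47) for number 2, both intervals including 1. Bad was also highest there, at 48.0 and 41.8 CPM in WT and 87.6 and 34.5 in ACC1 KO, 2.09 times the mean of the next class. In the other 7 classes Bad kept within means of 17.9 to 25.4 CPM. The iNKT17-like class holds 25 to 79 cells a library.

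The effectors had another order from Bcl2l11. Bax averaged 212 CPM in cycling cells of the iNKT2 side, 197 CPM in the iNKT0-like and 193 CPM in the iNKT2-like class, against 130 CPM in the iNKT1-like class, and the iNKT2-like level was 1.25 to 1.77 times the iNKT1-like level. Bak1 averaged 38.6 CPM in cycling cells of the iNKT2 side (36.8 to 40.8 CPM over the libraries) and 33.2 CPM in the iNKT2-like class, 1.76 to 2.13 times the iNKT1-like level. The other classes had Bak1 at 17.3 to 23.8 CPM. In iNKT2-like cells, then, Bax and Bak1 were higher and Bcl2l11 lower than in iNKT1-like cells, in each of the 4 libraries. The iNKT2-like class scored 1.16 on cycling markers, under the naming limit of 1.5, with a median of 10500 UMIs a cell. The largest iNKT1-like cluster scored -0.38, with a median of 6822. Cycling cells of the iNKT1 side averaged 157 CPM for Bax, 18.9 for Bak1 and 52.1 for Bcl2l11. The part of the cell cycle and of depth in these levels was not tested.

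Bid averaged 21.5 CPM in cluster 3, 17 CPM in the iNKT1-like class and 12.5 CPM in the iNKT2-like class, and 34.4 CPM in DP thymocyte-like and 43.4 CPM in B cell-like cells. Pmaip1 averaged 6.02 CPM in cycling cells of the iNKT1 side and 3.98 CPM in the iNKT1-like class. In the 346 iNKT0-like and 214 iNKT17-like cells it rested on 4 UMIs each. Bmf had means of at most 1.13 CPM in the iNKT classes and no UMI in the iNKT17-like class, and 6.24 CPM in DP thymocyte-like cells.

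Per cell, these are sparse transcripts, and depth sets how often they are seen. Without adjusting for depth, 16.6 and 19.5% of WT iNKT cells and 33.7 and 31.2% of ACC1 KO iNKT cells had a Bbc3 UMI, at median depths of 4643, 6187, 4474 and 7310.5 UMIs. With each cell thinned to 2000 UMIs, which left out 22 to 129 shallower cells a library, the shares were 7.61% (95% interval 6.86 to 8.42) and 6.76% (6.25 to 7.30) in WT and 17.4% (16.4 to 18.4) and 10.1% (9.48 to 10.8) in ACC1 KO. The thinned shares kept the order of the summed levels. Clopper-Pearson intervals cover counting error only. For comparison, 2.43% of B cell-like cells in WT 1 and 1.94% in ACC1 KO 1 had a Bbc3 UMI after the same thinning. Cells with a Bbc3 UMI held on average 1.21 and 1.22 of them in WT and 1.36 and 1.36 in ACC1 KO before thinning, and the highest count in 1 cell was 8, in ACC1 KO 1.

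**Figure D4:**
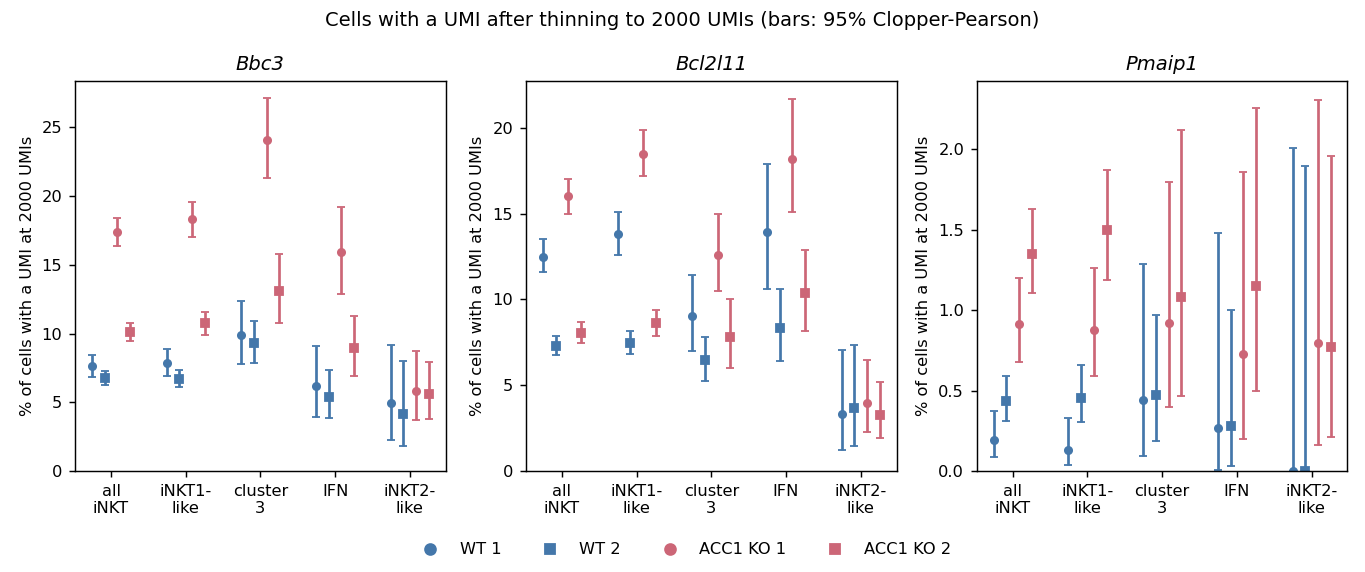
Percent of cells with at least 1 UMI of Bbc3, Bcl2l11 or Pmaip1 after every cell was thinned to 2000 UMIs, in all iNKT cells and 4 of the classes (1 point a library; bars, 95% Clopper-Pearson intervals). Over all iNKT cells Bbc3 lies at 6.76 and 7.61% in WT and at 10.1 and 17.4% in ACC1 KO, and Bcl2l11 is highest in ACC1 KO 1.

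Thinned shares for Bcl2l11 were 12.5 and 7.29% in WT and 16 and 8.07% in ACC1 KO, and for Bax 23.6 and 20.6% in WT and 28.7 and 20.2% in ACC1 KO. Both overlapped between the genotypes. Pmaip1 was seen in 0.196 and 0.434% of WT cells and 0.913 and 1.35% of ACC1 KO cells after thinning, and in 0 to 1.45% of DP thymocyte-like cells. Before thinning, the DP thymocyte-like cells held 9 and 0 Pmaip1 UMIs in WT and 4 and 1 in ACC1 KO. These cells may express the gene and their UMIs are few, so they set no background level. Single cells could not be called with or without Pmaip1 at this depth. Bik was seen in 1.77 and 1.35% of WT and 1.42 and 0.694% of ACC1 KO cells.

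Counting how many of the 9 genes a thinned cell showed, the mean was 0.576 and 0.468 in WT and 0.770 and 0.510 in ACC1 KO. No gene of the 9 was seen in 53.2 and 60.9% of WT cells and in 42.3 and 58.0% of ACC1 KO cells. At least 3 were seen in 0.960 and 0.667% of WT cells and in 2.35 and 0.797% of ACC1 KO cells. ACC1 KO 1 again stood apart, and ACC1 KO 2 lay between the WT libraries.

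iNKT1-like cells were then split, in each library, by whether a thinned cell had a UMI of a reader gene, that is a gene known to respond to p53, T cell receptor, stress, glucocorticoid or lipid signals. Cells with a lipid reader (Scd1, Scd2, Fads2, Acsl3, Sqle or Srebf1) were 10.7 and 8.5% of the class in WT and 45.1 and 45.9% in ACC1 KO. Bbc3 read slightly lower in these cells within each library. Its level in cells with and without a lipid reader was, in CPM, 38.3 and 41.7 in WT 1, 32.3 and 35.5 in WT 2, 97.2 and 99.5 in ACC1 KO 1, and 57.6 and 58.0 in ACC1 KO 2. The ratio was 0.911 to 0.993, below 1 in all 4 libraries. Cells with a lipid reader held 61 and 115 Bbc3 UMIs in WT and 693 and 1053 in ACC1 KO. No interval was computed for the ratio, so counting error alone may give differences this small. Both ACC1 KO values lay above both WT values in cells with and in cells without a reader. A cell with no reader UMI after thinning can still hold the transcript, so the split is not clean. Whether Bbc3 goes with the lipid genes was not tested.

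**Figure D5:**
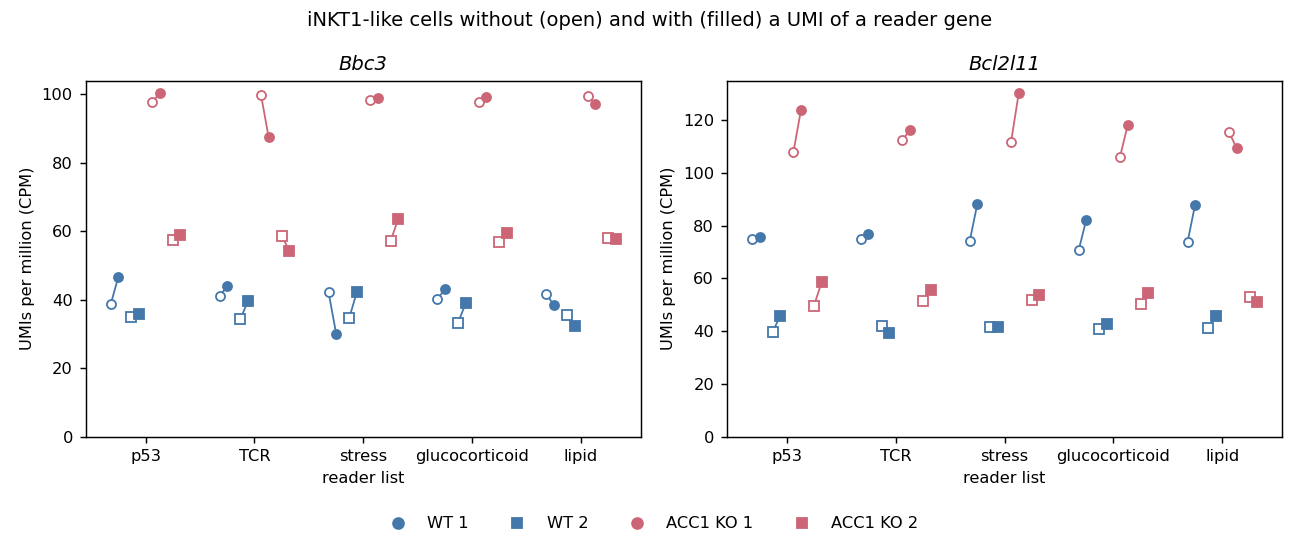
CPM of Bbc3 and Bcl2l11 (vertical axes from 0) in iNKT1-like cells without (open) and with (filled) a UMI of each of 5 reader lists, with a joined pair of points a library. For Bbc3, cells with a lipid reader lie slightly below cells without one in all 4 libraries.

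Cells with a p53 reader (such as Cdkn1a, Ccng1 or Mdm2) had 1.03 to 1.21 times the Bbc3 level of cells without one, and cells with a glucocorticoid reader (Tsc22d3, Fkbp5, Per1 or Ddit4) 1.02 to 1.17 times, above 1 in all 4 libraries for both. The ratios for T cell receptor readers (0.876 to 1.15) and stress readers (0.713 to 1.22) went both ways. Bcl2l11 was above 1 in all 4 libraries for the p53 (1.01 to 1.18) and glucocorticoid readers (1.05 to 1.16), and for the stress readers (1 to 1.19), and went both ways for the T cell receptor (0.943 to 1.09) and lipid readers (0.947 to 1.19). These ratios carry no test.

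Across the 28 sums of class and library, some genes followed the members closely. These correlations of log2(CPM + 1) are descriptions, since the sums share libraries and depth. The 3 genes most like Bcl2l11 were Rnf13, Hnrnph3 and Arl6ip5 (r = 0.885, 0.860 and 0.857), and those most like Bbc3 were Rnf138, Pik3ip1 and Abcg1 (r = 0.832, 0.831 and 0.803). Bak1 went with Zbtb16 (r = 0.853), the factor that defines innate-like T cells, followed by Tiam1 and Igfbp4. Bid went with the natural killer cell receptor gene Klra3, with Il2rb and with Serpinb9 (r = 0.846, 0.836 and 0.834). Bax followed Srsf6, Lsm7 and Cct8 (r = 0.933, 0.930 and 0.919), and Bad followed Nbdy, Tmem156 and Ero1l (r = 0.830, 0.773 and 0.763). Between the members, Pmaip1 and Bbc3 had r = 0.586, and Bcl2l11 and Bak1 had r = -0.623.

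The other genes of the pathway were read in the same fit over all iNKT cells, and edgeR called none of them. The median log2 difference, which carries no test, was 0.23 over the 7 BH3-only genes, against -0.01 over all genes tested. The value of 0.23 is that of Bmf, which was close to absent and had an SE of 0.36. Over the 2 effectors the median was 0.15, from 0.24 for Bax, which turned negative without ACC1 KO 1, and 0.07 for Bak1. Over the guardians it was 0.04, and of the 6 tested none had groups that did not overlap. Bcl2, which holds the BH3-only proteins in check, read 613 and 426 CPM in WT and 898 and 574 in ACC1 KO (log2 difference 0.56 ± 0.28, SE, adjusted p = 1 by edgeR), with ACC1 KO 1 the highest as for Bcl2l11. Mcl1, the partner of NOXA, read 261 and 202 CPM in WT and 243 and 197 in ACC1 KO, and overlapped. The log2 differences of the other guardians with the smallest p were 0.37 ± 0.33 (SE) for Bcl2l2, -0.27 ± 0.26 for Bcl2a1d and 0.11 ± 0.13 for Bcl2l1.

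Of 15 genes downstream of the pore, 3 had both ACC1 KO libraries below both WT libraries, a share near the 19.2% of all genes that did. Endog, a mitochondrial nuclease, was among them (log2 difference -0.15 ± 0.14, SE), and the groups overlapped for Diablo (0.42 ± 0.35, SE) and Casp6 (-0.13 ± 0.16, SE). Of the 6 tested relatives (Bnip3, Bnip3l, Bcl2l12, Bcl2l13, Bcl2l14 and Becn1), 2 were above in both ACC1 KO libraries, as were 11.3% of all genes, and Bcl2l14 read 0.298 and 0.208 CPM in WT and 0.492 and 0.540 in ACC1 KO. The other of the pair was Bcl2l13 (0.06 ± 0.13, SE), and the groups overlapped for the mitophagy receptor genes Bnip3l (-0.07 ± 0.15, SE) and Bnip3 (0.10 ± 0.24, SE).

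Of 14 genes whose products act on the members as proteins, 2 were above in both, near the 11.3% of all genes that were. Gzmb, whose product granzyme B can cleave BID, read 325 and 273 CPM in WT and 525 and 467 in ACC1 KO (log2 difference 0.78 ± 0.16, SE), with an adjusted p of 0.553 by edgeR and of 0.00255 by DESeq2. Dynll2, the dynein light chain that tethers BMF, was the other (0.17 ± 0.14, SE), and the groups overlapped for Dynll1, which tethers BIM (0.17 ± 0.19, SE), and for Mtch2, the mitochondrial receptor of cleaved BID (0.11 ± 0.14, SE). Of 12 transcription factors known to drive members, 11 were tested. Of these, 1 was above in both and 1 below in both, where 11.3 and 19.2% of all genes were. E2f1 was above in both, at 4.30 and 7.90 CPM in WT and 9.28 and 9.89 in ACC1 KO, and the summed cycling markers moved the same way (216 and 372 CPM in WT against 402 and 515 in ACC1 KO). Foxo3, whose product is a FOXO factor, was below in both, at 78.2 and 71.0 CPM in WT and 56.9 and 67.1 in ACC1 KO. Neither was called by edgeR, with log2 differences of 0.67 ± 0.33 (SE) for E2f1 and -0.22 ± 0.14 (SE) for Foxo3. The groups overlapped for Myc (log2 difference 0.36 ± 0.22, SE) and Atf4 (0.29 ± 0.23, SE). Trp73, with 3 UMIs in all, was not tested.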

How the data were processed

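The unique molecular identifier (UMI) counts per gene and cell are those the authors deposited, made from 10x 3′ v3.1 libraries (per the labels' protocols) with Cell Ranger 7.0.0 on mm10 (per the submitters' processing notes). The 9 genes and the lists were chosen with earlier results of these data known. A cell was kept if it had 500 genes or more, 1000 UMIs or more and less than 10% of its UMIs from mitochondrial genes. Cells most like simulated doublets were removed at 0.8% per 1000 cells. Cells were clustered on 2000 variable genes without Bcl2 family, sex-marking and mitochondrial genes (30 components, 15 neighbours, Leiden resolution 1, 21 clusters). For this, variable genes were chosen by replicate number and each gene was scaled within it, so the classes rest on the number as a batch. Clusters were named from marker lists with limits set after seeing their scores. Counts were summed per class and library and tested in edgeR 4.0.16 (quasi-likelihood, TMM, filterByExpr, Benjamini-Hochberg over all genes, threshold 0.05; R 4.3.3), with DESeq2 1.42.0 as an alternative. The test was tried on simulated data. Whole libraries held 29.1 and 72.8 M UMIs in WT and 33.2 and 74.2 M in ACC1 KO, so CPM values of scarce genes are less precise in the libraries numbered 1. Whether introns were counted is not given in the sources used here.

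Named genes were all 9 members, up to 4 genes of each list with the smallest unadjusted p (1 such gene is not reported here), the 3 genes most correlated with each member at a mean of at least 10 CPM (among genes at a mean of at least 20 CPM), and Acaca and Scd2. Mcl1 and the genes that mark libraries and cell types were added after their values were seen. Alternatives were other size factors, no filter, DESeq2, a replicate block, each library left out, every barcode, doublets kept, one class mix, thinned sums and other cluster resolutions. Sums without iNKT17-like or without cycling cells were added after seeing the data.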

Additional observations from a re-analysis of the deposited data

How the results depend on the processing

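The count of genes called over all iNKT cells was 1. It became 104 with DESeq2, 343 with no filter on low counts, 1593 with a replicate block, 0 with every barcode and 7 to 20 with 1 library left out. It stayed at 1 with RLE size factors, doublets kept, one class mix, thinned sums and without iNKT17-like or cycling cells. The count of the 9 genes called there was 0, and it became 2 with no filter (Pmaip1 and Bbc3) and 4 with the replicate block (Bcl2l11, Pmaip1, Bbc3 and Bik). For genes of the other lists it was 0, and it became 1 with DESeq2, 2 with no filter and 9 with the block. In iNKT1-like cells 0 genes were called, against 82 with DESeq2, 224 with no filter, 1297 with the block, 1 at clustering resolution 0.5, 2 at resolution 2 and 2 to 30 with 1 library left out. Of the 9 genes, 0 were called there, against 1 with DESeq2 (Bbc3), 2 with no filter, 4 with the block (Bcl2l11, Pmaip1, Bbc3 and Bax) and 0 to 1 with 1 library left out. In iNKT2-like cells 0 were called, against 3 with DESeq2, 25 with no filter, 93 with the block and 0 to 5 with 1 library left out. The interaction called 20 genes, against 63 with no filter, 11 at resolution 2 and 45 to 78 with 1 library left out; resolution 0.5 gave no iNKT2-like class, and the block was not run because the library term absorbs it. At resolution 0.5 the cluster with the leading genes of the iNKT2-like class passed the limit for cycling markers (1.68 against 1.5). The cause of the changes in these counts was not tested.

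The labels do not say that the replicate numbers pair the libraries. Deviations of the libraries numbered 1 from their group means had r = 0.691 over 14710 genes, a hint from the data and not the design, with 2 pairs only. Sex and depth also go with the number, and their part in this value was not tested. With the block, the log2 difference over all iNKT cells was 0.92 for Bbc3, 1.44 for Pmaip1, 0.40 for Bcl2l11 and -0.43 for Bik, with adjusted p-values of 1.53e-18, 8.77e-13, 0.000215 and 0.0293 by edgeR. With so few libraries, the block leaves little from which to estimate the spread of a gene. These p-values therefore rest largely on the spread pooled over genes and on counting error, and the same fit called 1593 genes.

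The sign of some values turned. Over all iNKT cells, leaving out ACC1 KO 1 gave -0.14 for Bcl2l11, -0.088 for Bax and -0.18 for Bad, leaving out WT 2 gave -0.053 for Bad and 0.20 for Bak1, leaving out WT 1 gave -0.032 for Bak1, leaving out ACC1 KO 2 gave 0.87 for Bcl2l11, 0.32 for Bad, 0.51 for Bax and 0.026 for Bid, one class mix gave -0.012 for Bak1 and every barcode gave -0.079 for Bmf. In iNKT1-like cells, leaving out ACC1 KO 1 gave -0.0062 for Bcl2l11 and -0.0034 for Bax, and leaving out ACC1 KO 2 gave 1.03 and 0.58. Bbc3 kept its direction under all 14 alternatives over all iNKT cells (0.55 to 1.33), as did Pmaip1 (0.86 to 2.03) and Bik (-0.54 to -0.27).

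The 2 libraries a genotype, sex and depth that go with the replicate number, and few UMIs of Pmaip1, Bmf and Bik limit what these libraries show. The smallest classes (iNKT0-like, iNKT17-like) gave 0 to 2 Pmaip1 UMIs a library.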
